A study of Homo sapiens with 16 samples.

Results

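Transcript levels after transfection with si47 were compared with those after si45. Both are small interfering RNAs (siRNAs) directed against TPX2, and the comparison rests on 8 of the 16 libraries of the series, 4 per siRNA. The remaining libraries received si46, a further siRNA against TPX2, or siNTC, the non-targeting control, again with 4 libraries each. All were made from IMR32, a human neuroblastoma cell line that carries amplified MYCN, so every group represents 1 line, and the table's column names place all of them at 48 h. The siNTC libraries carry no knockdown, whereas the si45, si46 and si47 libraries are all labelled as TPX2 knockdowns. The series' design text calls the 4 libraries of a group biological replicates. It does not say whether they came from separate cultures, so p-values measure the spread between these libraries. The siRNA sequences were not used here, and the extent of TPX2 knockdown and other properties of each siRNA cannot be told apart in this design.

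TPX2 is a microtubule-associated protein that helps nucleate spindle microtubules in mitosis and that binds and activates the kinase AURKA. An siRNA guides the RNA-induced silencing complex to a complementary transcript, and it can also lower other transcripts that match its seed, which is why a target is usually probed with several siRNAs. Failure of spindle assembly delays mitosis, and cells that leave a prolonged mitosis can arrest through p53, whose target CDKN1A (p21) inhibits cyclin-dependent kinases. With those kinases inhibited the retinoblastoma family holds E2F factors inactive, and genes for DNA replication, many of them E2F targets, are then transcribed less.

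The 8 libraries were of similar depth, between 5318159 and 6429681 counts, and totals did not differ detectably between si47 and si45 (two-sided exact permutation p = 0.886). Genes of the adrenergic neuroblastoma state were expressed in both groups. Their summed level was 8460 to 9270 CPM (counts scaled to library size, with TMM factors) in si45 and 8860 to 9840 CPM in si47. Genes of the mesenchymal neuroblastoma state were expressed too, at 2070 to 2320 CPM in si45 and 2150 to 2380 CPM in si47. Markers of other cell types were low. 10 immune markers summed to 0.764 to 3.4 CPM in si45 and 1.1 to 3.7 CPM in si47, with LYZ, NKG7, MS4A1 and CD3E at 0 in all libraries. The corresponding ranges were 6.05 to 9.88 and 4.91 to 9.74 CPM for epithelial, 23.9 to 31.8 and 19.5 to 27.8 CPM for Schwann cell, and 71.4 to 94.8 and 77.2 to 109 CPM for fibroblast markers. SOX10, 1 of the Schwann cell markers, was at 0 throughout. Only 4 fibroblast, 3 Schwann cell, 2 epithelial and 0 immune markers were tested. None was called between the siRNAs. In a contrast that called 3.76% of all genes in the blocked fit below, that is no result about so few markers. Libraries with the same number deviated together from their group means, so results are given without and with the number as a block. Replicate 3 stood apart: in both groups it had the lowest p53 target score and the highest TOP2A and MCM5.

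Without the block, 24 of 14193 genes (0.169%) passed an adjusted p of 0.05 (edgeR quasi-likelihood test, Benjamini-Hochberg). 10 were higher in si47 (0.0705%) and 14 were lower (0.0986%), and 1475 genes had an unadjusted p under 0.05. With the block, fitted on the 8 libraries, 505 of 13431 genes passed (3.76%), 269 higher (2.0%) and 236 lower (1.76%). These held all 24 genes of the unblocked fit, and all 505 had the same sign there. All 24 are described below, and every other gene called between si47 and si45 passed with the block only. In 487 of the 505, all 4 pairs of same-numbered libraries moved in the direction of the call. The calls were made on these same libraries, so the shared signs and pair directions are no separate evidence for them. In CPM, the si47 libraries lay wholly above the si45 libraries for 375 genes (2.64%) and wholly below them for 370 (2.61%), so 5.25% of genes did not overlap either way.

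The differences were mostly small. The median size among the 505 genes was 0.43 on the log2 scale, 317 of them changed by 0.5 or less, and 28 changed at least 2-fold. Of these 28, 25 were higher. The 3 lower ones, named here after their values were seen, were RALYL (-1.11), AC021945.1 (-1.56) and the processed pseudogene RPL23AP32 (-1.34), each with a mean of at most 35.9 counts per library. The number called depended on single replicates: with the block it was 184 without replicate 1, 260 without replicate 2, 543 without replicate 3 and 205 without replicate 4. Without the block it fell to 15 without si47 replicate 1 or si45 replicate 3, to 12 without si47 replicate 2 or si47 replicate 4 and to 10 without si45 replicate 4, and it was 147 without si47 replicate 3.

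**Figure D1:**
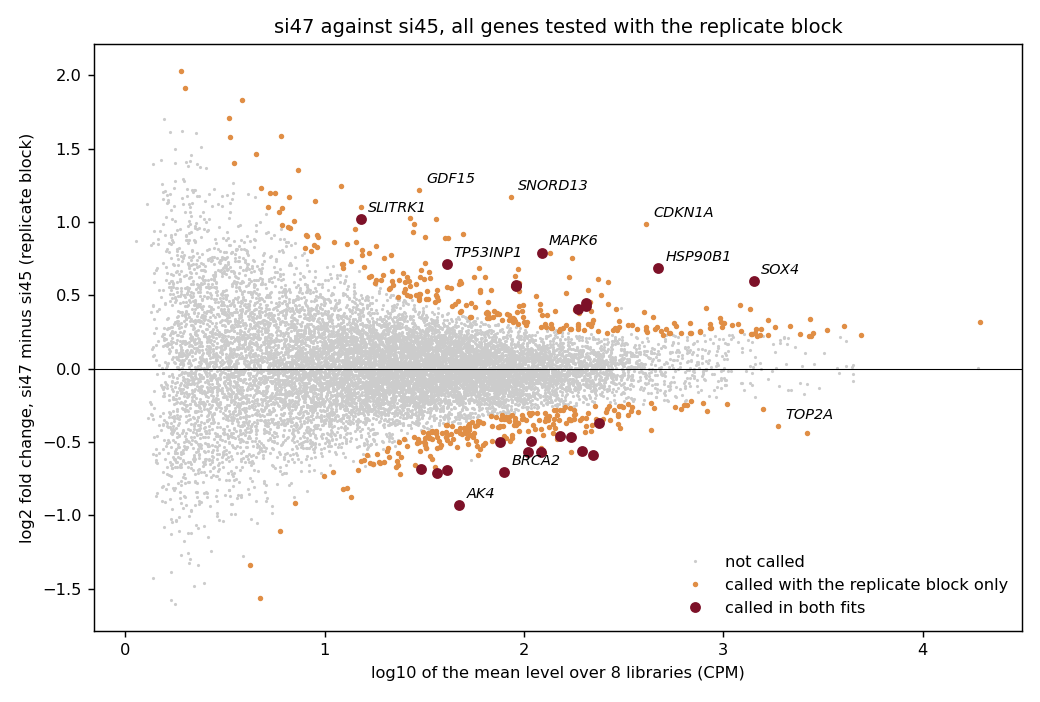
Log2 fold change of si47 against si45 with the replicate block (vertical axis) against the log10 mean level over the 8 libraries in CPM (horizontal axis), 1 point per gene tested. Grey points were not called, orange points were called with the block only, and the 24 dark red points were called in both fits. Most calls lie within 1 log2 unit of 0, and 25 of the 28 calls beyond 1 are higher in si47.

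The knockdown itself was compared before other genes. TPX2 lies on chromosome 20 from 31739271 to 31801805 (plus strand, GENCODE v29 on GRCh38, ENSG00000088325) and had 80.9, 79.4, 121 and 85.1 CPM in si45 replicates 1 to 4 and 68.7, 69.7, 76.3 and 71.3 CPM in si47, against 297 to 359 CPM in siNTC. The si46 replicates 1 to 4 held 90.9, 79.8, 93.8 and 62.2 CPM, so si46 replicate 4 lay below every si47 library. All 4 si47 libraries lay below all 4 si45 libraries, and si45 replicate 3 was the highest of the 8. The difference reached the smallest p that 4 against 4 libraries allow in a test of this gene alone (two-sided exact permutation p = 0.0286). In the fit across all genes it was -0.36 on the log2 scale (SE 0.123, adjusted p = 0.246), and -0.34 with the block (SE 0.09598, adjusted p = 0.0327). The si47 mean was lower by 22.0% of the si45 mean. TPX2 was thus called with the block on the 8 libraries, but not without it and not with the block over all 16 libraries (adjusted p = 0.107). Without si45 replicate 3 the unblocked log2 fold change was -0.19. AURKA, the kinase that TPX2 activates, had 125, 100.3, 163 and 111 CPM in si45 and 94.5, 98.3, 149 and 134 CPM in si47, with overlapping groups and no call (log2 fold change -0.07, adjusted p = 0.922). MYCN, the amplified driver of this line, likewise overlapped at 1441, 1233, 858 and 1257 CPM and 1590.3, 1164, 1048 and 1362 CPM (log2 fold change 0.11, adjusted p = 0.872). The signs of the AURKA and MYCN values turned when single libraries were left out.

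**Figure D2:**
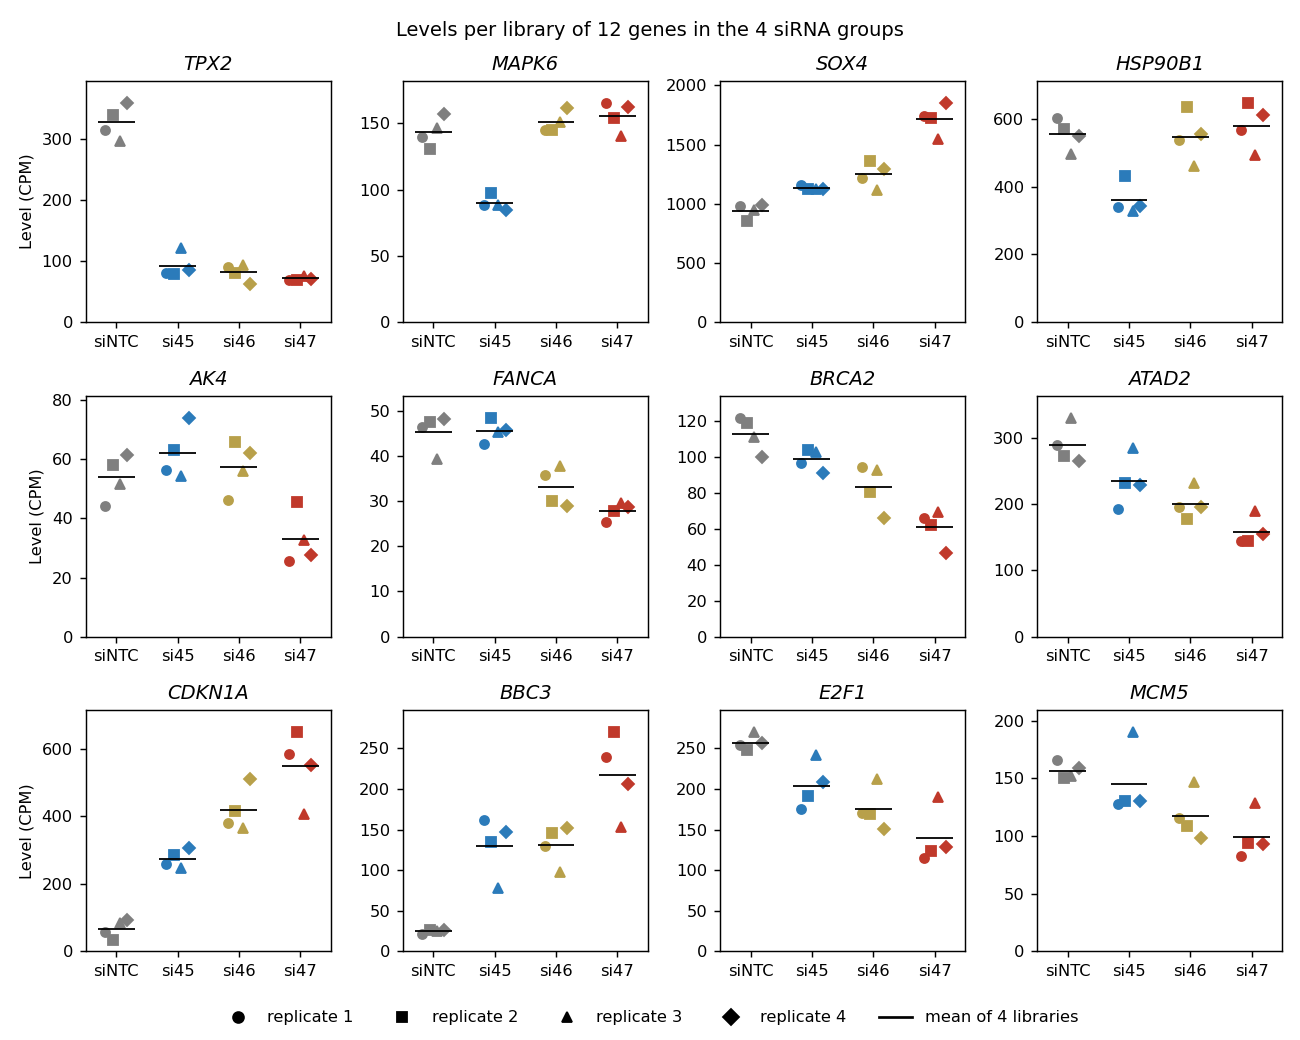
Level in CPM of 12 genes (vertical axes, from 0) in each of the 16 libraries, by siRNA; marker shapes show the replicate number and bars the mean of 4 libraries. MAPK6 and HSP90B1 are low in si45 alone, and AK4 is low in si47 alone. In each of the 12 genes the si46 mean lies between those of si45 and si47.

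Among the 10 genes higher in si47 without the block, MAPK6 and HSP90B1 were low in si45 and near the control in si47. MAPK6, an atypical MAP kinase also known as ERK3 (ENSG00000069956, chromosome 15, 51952106 to 52067372 on the plus strand), had 88.8, 97.9, 88.3 and 84.9 CPM in si45 and 166, 154, 141 and 163 CPM in si47 (log2 fold change 0.79, SE 0.0887, adjusted p = 2.49e-06). The si45 values lay below every siNTC (130.4 to 157 CPM) and si46 (145 to 162 CPM) library. HSP90B1, the endoplasmic reticulum chaperone GRP94 (ENSG00000166598, chromosome 12, 103930107 to 103953645 on the plus strand), had 341, 433, 328 and 344 CPM in si45 and 569, 648, 494 and 612 CPM in si47 (log2 fold change 0.68, SE 0.1003, adjusted p = 0.000437). Again si45 was below siNTC (496 to 603 CPM) and si46 (461 to 637 CPM). C12orf73 and TTC41P overlap HSP90B1 on the opposite strand and MIR3652 on the same strand, and whether counting used strand is not given in the sources used here. With the block 2 of 30 endoplasmic reticulum chaperone and unfolded protein response genes were called (6.67%, against 3.76% of all genes), and HSP90B1 was the higher one. HSPA5, the chaperone BiP, was called lower (-0.22, adjusted p = 0.0485), and the list's median was 0.01 against 0.00 over all genes tested. 1 of the 2 calls was left without replicate 2 or 4.

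SOX4, a transcription factor of neural and sympathetic progenitors (ENSG00000124766, chromosome 6, 21592768 to 21598619 on the plus strand), rose in si47 instead. SOX4 had 1158, 1129, 1126 and 1125 CPM in the si45 libraries and 1743, 1727, 1546 and 1852 CPM in the si47 libraries (log2 fold change 0.60, SE 0.08005, adjusted p = 7.35e-05). The groups did not overlap, and siNTC held 853 to 988 CPM and si46 1115 to 1364 CPM, so si47 exceeded every other library. AL512380.2 overlaps SOX4 on the opposite strand. Of 7 SOX genes tested, SOX4 and SOX2, a stem cell factor, were called higher with the block (SOX2 0.78, adjusted p = 0.0133). That is 28.6% of a short list, against 3.76% of all genes called and 2.0% called higher. SOX2 was scarce, with 8.54, 14.8, 9.71 and 11.3 CPM in si45 and 18.9, 31, 9.24 and 19.98 CPM in si47, and its groups overlapped at si47 replicate 3. Only 1 of the 2 was called without replicate 1, 2 or 4.

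NHLH1, DCX and SLITRK1 were also called higher, and of these DCX is on the neuronal differentiation list. NHLH1, a basic helix-loop-helix factor of developing neurons, had 67.5, 81.8, 71.6 and 73 CPM in si45 and 100.3, 135, 102 and 99.6 CPM in si47 (log2 fold change 0.57, SE 0.1102, adjusted p = 0.0143), with 57.4 to 75.5 CPM in siNTC. DCX, doublecortin, a microtubule-binding protein of migrating neuroblasts, had 187, 173, 158 and 179 CPM in si45 and 262, 219.5, 228 and 226 CPM in si47 (log2 fold change 0.43, SE 0.089, adjusted p = 0.0267). All si47 libraries exceeded the siNTC libraries (178 to 217 CPM) for DCX, while si45 replicates 2 and 3 lay below them. SLITRK1, a synaptic adhesion protein, had 12.7, 7.95, 11.8 and 7.57 CPM in si45 and 24.7, 22.5, 13.6 and 20.7 CPM in si47 (log2 fold change 1.02, SE 0.216, adjusted p = 0.0285), and it was the only gene called without the block that changed at least 2-fold. Over the 34 neuronal differentiation genes, 4 were called higher with the block and 0 lower (11.8% called, against 3.76% of all genes). These were DCX, SCG2 (secretogranin 2, 0.59), NEFL (a neurofilament subunit, 0.32) and MAP1B (a microtubule-associated protein, 0.23). The list's median was 0.09, and 2 members were called without replicate 1, 2 or 4.

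The other 4 higher genes were of separate kinds. TP53INP1, a p53 target of the stress response, had 34.2, 28.7, 30.2 and 31 CPM in si45 and 56.7, 51.5, 44.9 and 50.3 CPM in si47 (log2 fold change 0.71, SE 0.147, adjusted p = 0.0242), with 8.45 to 18.2 CPM in siNTC and 35.6 to 46.6 CPM in si46. FBXW7, the substrate receptor of an SCF ubiquitin ligase for cyclin E and MYC proteins, had 176, 181, 172 and 159.8 CPM in si45 and 239, 271, 199.9 and 234 CPM in si47 (log2 fold change 0.45, SE 0.0929, adjusted p = 0.0242). For both genes the si45 libraries already lay above the siNTC libraries (119 to 149 CPM for FBXW7). SSR2, a subunit of the translocon-associated protein complex, had 146, 183, 149 and 161 CPM in si45 and 189.7, 222, 233 and 203 CPM in si47 (log2 fold change 0.40, SE 0.0875, adjusted p = 0.0361), with siNTC at 151 to 165 CPM. The processed pseudogene AL033519.2 (ENSG00000219023, chromosome 6, 35555873 to 35556264 on the plus strand) had a log2 fold change of 0.58 (adjusted p = 0.0108). How reads shared with its parent gene were counted is not given in the sources used here. FBXW7-AS1 overlaps FBXW7, and AL355388.3 overlaps SSR2, on the opposite strand.

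Of the 14 genes lower in si47, ATAD2, HELLS, CHAF1A and RRM2 are on the list of S phase genes. They are given here with BRCA2 and FANCA, repair genes that are on a list drawn up after these values were seen. BRCA2, a mediator of homologous recombination repair (ENSG00000139618, chromosome 13, 32315474 to 32400266 on the plus strand), had 96.9, 104, 103 and 91.2 CPM in si45 and 65.9, 62.2, 69.2 and 46.6 CPM in si47 (log2 fold change -0.70, SE 0.116, adjusted p = 0.00239). FANCA, a subunit of the Fanconi anaemia core complex, had 42.7, 48.5, 45.3 and 45.8 CPM in si45 and 25.5, 27.8, 29.6 and 28.6 CPM in si47 (log2 fold change -0.71, SE 0.124, adjusted p = 0.00387). ATAD2, a bromodomain ATPase, had 192, 232, 284 and 229 CPM in si45 and 145, 144, 189 and 156 CPM in si47 (log2 fold change -0.56, SE 0.108, adjusted p = 0.0145). In all 3 genes the siRNA groups did not overlap and si46 reached lower than si45, to 65.9, 28.9 and 178 CPM. The si45 libraries lay partly within the siNTC range for BRCA2 (100.1 to 122 CPM), FANCA (39.3 to 48.1 CPM) and ATAD2 (265 to 331 CPM). HELLS, a chromatin remodeller, had 276, 299, 249 and 247 CPM in si45 and 199, 216, 207 and 204 CPM in si47 (log2 fold change -0.38, SE 0.0837, adjusted p = 0.0479). CHAF1A, the large subunit of the histone chaperone CAF-1, had 160.2, 170.02, 194 and 171 CPM in si45 and 99.5, 149.9, 124 and 138 CPM in si47 (log2 fold change -0.45, SE 0.0998, adjusted p = 0.04997). RRM2, the small subunit of ribonucleotide reductase, had 184, 193, 204 and 213 CPM in si45 and 116, 147, 167 and 149 CPM in si47 (log2 fold change -0.46, SE 0.103, adjusted p = 0.04997). HELLS, CHAF1A and RRM2 sat just inside the threshold and lost the call with upper-quartile factors. FANCA shares its locus with ZNF276, CHAF1A with UBXN6 and ATAD2 with IMPDH1P6, on opposite strands.

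The other 8 lower genes included AK4, ENTREP3 and RPL14P1, for which si45 and si46 lay close to the control. AK4, a mitochondrial adenylate kinase (ENSG00000162433, chromosome 1, 65147549 to 65232145 on the plus strand), had 56.5, 63.1, 54.3 and 74.1 CPM in si45 and 25.5, 45.7, 32.8 and 27.8 CPM in si47 (log2 fold change -0.92, SE 0.154, adjusted p = 0.00387). siNTC held 44.1 to 61.6 CPM and si46 46.2 to 65.8 CPM, so 3 of the 4 si47 libraries lay below every library of the other groups. ENTREP3 had 136, 139.7, 146 and 159.8 CPM in si45 and 88.5, 95.4, 108 and 99.6 CPM in si47 (log2 fold change -0.57, SE 0.0862, adjusted p = 0.000484), with 140.1 to 145 CPM in siNTC and 132 to 141 CPM in si46. RPL14P1, a processed copy of the ribosomal protein gene RPL14 (ENSG00000139239, chromosome 12, 62965325 to 62965969 on the plus strand), had 129.8, 111, 143 and 117 CPM in si45 and 78.6, 78.2, 96.3 and 83.5 CPM in si47 (log2 fold change -0.57, SE 0.102, adjusted p = 0.00483), against 111 to 144 CPM in siNTC. RPL14 itself had 492, 473, 493 and 521 CPM and 295, 382, 379 and 435 CPM (adjusted p = 0.0542; -0.42 with the block, SE 0.0737, adjusted p = 0.000219). Reads of RPL14 and RPL14P1 may have been divided between the copies, so their values are not separate measurements. The remaining 5 were IDH2, mitochondrial isocitrate dehydrogenase (-0.58, adjusted p = 0.0193), NETO2, an auxiliary subunit of kainate receptors (-0.49, adjusted p = 0.02302), the adhesion protein NECTIN3 (-0.68, adjusted p = 0.0242), C21orf58 (-0.68, adjusted p = 0.0415) and EMC3-AS1 (-0.50, adjusted p = 0.0285), which overlaps EMC3 on the opposite strand.

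The calls differed in how far they depended on the settings. 8 of the 24 genes, MAPK6, SOX4, HSP90B1, ENTREP3, BRCA2, FANCA, AK4 and RPL14P1, were called in all 17 alternative fits, and these were also the 8 with an adjusted p under 0.01. The other 16 lost the call under 2 to 9 alternatives. Leaving out si47 replicate 4 ended 15 of the 24 calls, si45 replicate 4 14, si47 replicate 1 or 2 13 each, si45 replicate 3 11, si45 replicate 2 9 and si45 replicate 1 2. Leaving out si47 replicate 3 ended 0.

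Of the 17 pathway lists, p53 target genes had the largest share of members higher in si47. With the block, 20 of 36 tested members were higher in si47 and 0 lower (55.6% called, against 3.76% of all genes called and 2.0% called higher), and their median log2 fold change was 0.40. Without the block only TP53INP1 was called, while 25 members were higher and 0 lower at an unadjusted p under 0.05. The list score, the average log2 CPM of its members relative to siNTC, was 1.12, 1.21, 0.78 and 1.07 in si45 replicates 1 to 4 and 1.59, 1.61, 1.22 and 1.402 in si47. Replicate 3 had the lowest score in either group, and each si47 library exceeded its same-numbered si45 library by 0.335 to 0.471. The number of members called was 10 without replicate 1 and 13 without replicate 2 or 4. PHLDA3, an inhibitor of AKT signalling, was called with the block (0.58, adjusted p = 0.000872) and did not overlap between the siRNAs. RRM2B, CCNG1 and ZMAT3 were among the further members called (0.63, 0.50 and 0.49), which act in nucleotide supply, cell cycle feedback and RNA stability.

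CDKN1A, the inhibitor of cyclin-dependent kinases (ENSG00000124762, chromosome 6, 36676460 to 36687339 on the plus strand), had 258, 284, 246 and 307 CPM in si45 and 583, 649, 406 and 551 CPM in si47, against 33.6 to 91.3 CPM in siNTC and 365 to 509 CPM in si46. The groups did not overlap, and the lowest si47 library was replicate 3. Its log2 fold change was 1.0 without the block (SE 0.239, adjusted p = 0.122) and 0.99 with the block (SE 0.0756, adjusted p = 1.88e-12). With the block fitted over all 16 libraries the adjusted p was 0.0587. DINOL, a noncoding RNA, overlaps CDKN1A on the opposite strand. MDM2, the ubiquitin ligase that degrades p53, had 218, 233, 152 and 199 CPM in si45 and 297, 357, 215 and 272 CPM in si47 (0.50 with the block, SE 0.0728, adjusted p = 9.59e-06), and its groups overlapped at replicate 3. GDF15, a stress-induced secreted factor, had 18, 27.1, 10.6 and 14.6 CPM in si45 and 31.4, 75.8, 25.2 and 35.6 CPM in si47 (1.22 with the block, SE 0.141, adjusted p = 1.05e-07). The GDF15 groups overlapped, and its adjusted p without the block was 0.321.

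Of the apoptosis genes of the BCL2 family, 3 of 15 were higher with the block and 0 lower (20% called, against 3.76% of all genes called and 2.0% called higher). BBC3, the BH3-only protein PUMA, had 162, 135, 78.2 and 147 CPM in si45 and 239, 269.97, 154 and 207 CPM in si47 (0.75 with the block, SE 0.0842, adjusted p = 4.19e-08), with 21.2 to 26.7 CPM in siNTC. Each si47 library exceeded its same-numbered si45 library, but si47 replicate 3 fell among the si45 libraries. BAX, a pore-forming effector, had 24.5, 38.1, 33.8 and 37.6 CPM in si45 and 47.2, 51.3, 50.4 and 46.1 CPM in si47 without overlap (0.56 with the block, SE 0.1201, adjusted p = 0.00347). Neither BBC3 nor BAX was called without the block (adjusted p = 0.207 and 0.165). PMAIP1, the BH3-only protein NOXA, was the third (0.37, adjusted p = 0.0162). All 3 also belong to the p53 target list, so the lists are not separate evidence, and 1 of the 3 was called without replicate 1.

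S phase genes fell in si47. With the block, 31 of 59 members were lower and 0 higher (52.5% called, against 3.76% of all genes called and 1.76% called lower), 58 of the 59 had a negative log2 fold change, and the median was -0.36. Without the block ATAD2, HELLS, CHAF1A and RRM2 were called. The list score was -0.32, -0.23, -0.12 and -0.19 in si45 and -0.68, -0.59, -0.36 and -0.58 in si47, and every si47 library lay below every si45 library. Within pairs the score fell by 0.241 to 0.381, least in replicate 3. The number called was 17 without replicate 1 or 4 and 20 without replicate 2.

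E2F1, the transcription factor that drives entry into S phase (ENSG00000101412, chromosome 20, 33675683 to 33686404 on the minus strand), had 175, 191, 242 and 209 CPM in si45 and 115, 124, 190.03 and 128 CPM in si47, against 248 to 270.1 CPM in siNTC (log2 fold change -0.55, SE 0.132, adjusted p = 0.0775; -0.57 with the block, SE 0.0789, adjusted p = 4.06e-06). si47 replicate 3 lay within the si45 range. MCM5, a subunit of the replicative helicase, had 128, 131, 190.03 and 131 CPM in si45 and 82.7, 93.8, 128 and 93.1 CPM in si47 (-0.54 with the block, SE 0.0826, adjusted p = 2.34e-05). In MCM5, replicate 3 was the highest of both groups. The MCM5 groups overlapped, and its adjusted p without the block was 0.11. The helicase subunits MCM2, MCM3, MCM4, MCM6 and MCM7 were called too, at -0.44, -0.34, -0.39, -0.37 and -0.26. So were the loading and firing factors CDC6 (-0.40), CDT1 (-0.45), MCM10 (-0.48) and GINS4 (-0.56), and the polymerase subunits POLA1 (-0.42), POLA2 (-0.54), POLD3 (-0.38) and POLE (-0.46). Nucleotide supply was represented by TK1 (-0.60) beside RRM2. WDR76, a chromatin-associated WD40 protein, had 134, 154, 172 and 141 CPM in si45 and 73.9, 106, 127 and 102 CPM in si47 without overlap (-0.57 with the block, SE 0.0852, adjusted p = 1.54e-05).

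Because E2F factors regulate many of these genes, the RefSeq promoter windows (GRCh38.p14, 250 bases before to 50 after the start) were searched for TTTGGCGC, TTTCCCGC and TTTCGCGC on both strands. At least 1 of these motifs was found in 763 of 27305 promoters (2.79%) and in 4.64% of those of the genes tested. It was found in 29 of the 178 matched promoters of genes lower in si47 with the block (16.3%) and in 5.26% of those of higher genes. Of the 47 S phase genes with a promoter in the table, 24 held it (51.1%), 16 of 24 that were called lower (66.7%) and 8 of 23 that were not called (34.8%). Those 16 promoters are among the 29 of the lower genes, so the 16.3% rests in large part on S phase genes. The split was not particular to the E2F letters. CCAAT was in 17 of the 24 called S phase promoters (70.8%) and 11 of the 23 not called (47.8%). These differences were not tested. Windows around E2F matches in genes lower in si47, and in MYCN, which was not called, show the letters in context. Each is written 5′ to 3′ along the gene's strand with the match in capitals, and a match read on the other strand appears as its reverse complement, such as GCGCCAAA in POLE.
E2F1: gcaaaaaggaTTTGGCGCgtaaaagtgg
CDC6: gccattcggaTTTGGCGCgagcgcggct
MCM6: attggtcaggTTTGGCGCgaaatctcca
DTL: gtgacgtcagTTTGGCGCggagtttggc
POLE: gggtgggagcGCGCCAAAtttctcccct
HELLS: atgacaggatTTTCCCGCgaaggagaag
MCM7: gggggcgacgTTTCGCGCcaatttcggt
MYCN: gcaagtggctTTTGGCGCgaaagccttg
These windows are at chr20:33686388-33686415 (minus strand), chr17:40287876-40287903 (plus), chr2:135876516-135876543 (minus), chr1:212035730-212035757 (plus), chr12:132687343-132687370 (minus), chr10:94545770-94545797 (plus), chr7:100101389-100101416 (minus) and chr2:15940364-15940391 (plus). In MCM6 and MYCN the TTTGGCGC match overlaps a TTTCGCGC match on the other strand. A match describes the letters in the window and not binding by a factor.

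Few genes of G2 and mitosis were called. With the block 4 of 55 were lower and 0 higher (7.27% called, against 3.76% of all genes called and 1.76% called lower). The median was -0.11, and 46 of 55 were negative. The members called were TOP2A, topoisomerase II alpha, AURKB, the kinase of the chromosomal passenger complex, the kinesin KIF14 and the p53-binding protein GTSE1 (-0.39, -0.29, -0.34 and -0.31). TOP2A had 1779, 1695, 2961 and 2194 CPM in si45 and 1335, 1425, 1977 and 1757 CPM in si47, overlapping, with replicate 3 highest in each (adjusted p = 0.0001701 with the block, 0.18 with the block over all 16 libraries, 0.428 without a block). 2 members were called without replicate 1 and 1 without replicate 2 or 4. Of the promoters of G2 and mitosis genes, 74.5% held TTTGAA or TTCGAA, the core of the cell cycle homology region, on either strand, and 6.38% held the E2F letters. The core was in 6.38% of S phase promoters, 11% of those of the genes tested and 16.6% of all promoters. It was in 17.4% of promoters of genes lower in si47 with the block and 11.7% of those of higher genes. Whether the S phase and mitotic lists differed in their change between si47 and si45 was not tested.

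Because BRCA2 and FANCA were among the lowest, 36 genes of homologous recombination and the Fanconi anaemia pathway, a list drawn up after these values were seen, were counted. With the block 10 were lower and 0 higher (27.8% called, against 3.76% of all genes called and 1.76% called lower), with a median of -0.32. BRCA2 and FANCA, which prompted the list, are among the 10, so the count is no separate evidence. Beside BRCA2 and FANCA these included POLQ, the polymerase of end joining by microhomology (-0.72), the helicases BRIP1 (-0.48) and BLM (-0.34), XRCC2 (-0.47), BRCA1 (-0.43), FANCD2 (-0.38) and the nuclease EXO1 (-0.36). Of those named, BRIP1, BLM and EXO1 are also on the S phase list.

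**Figure D3:**
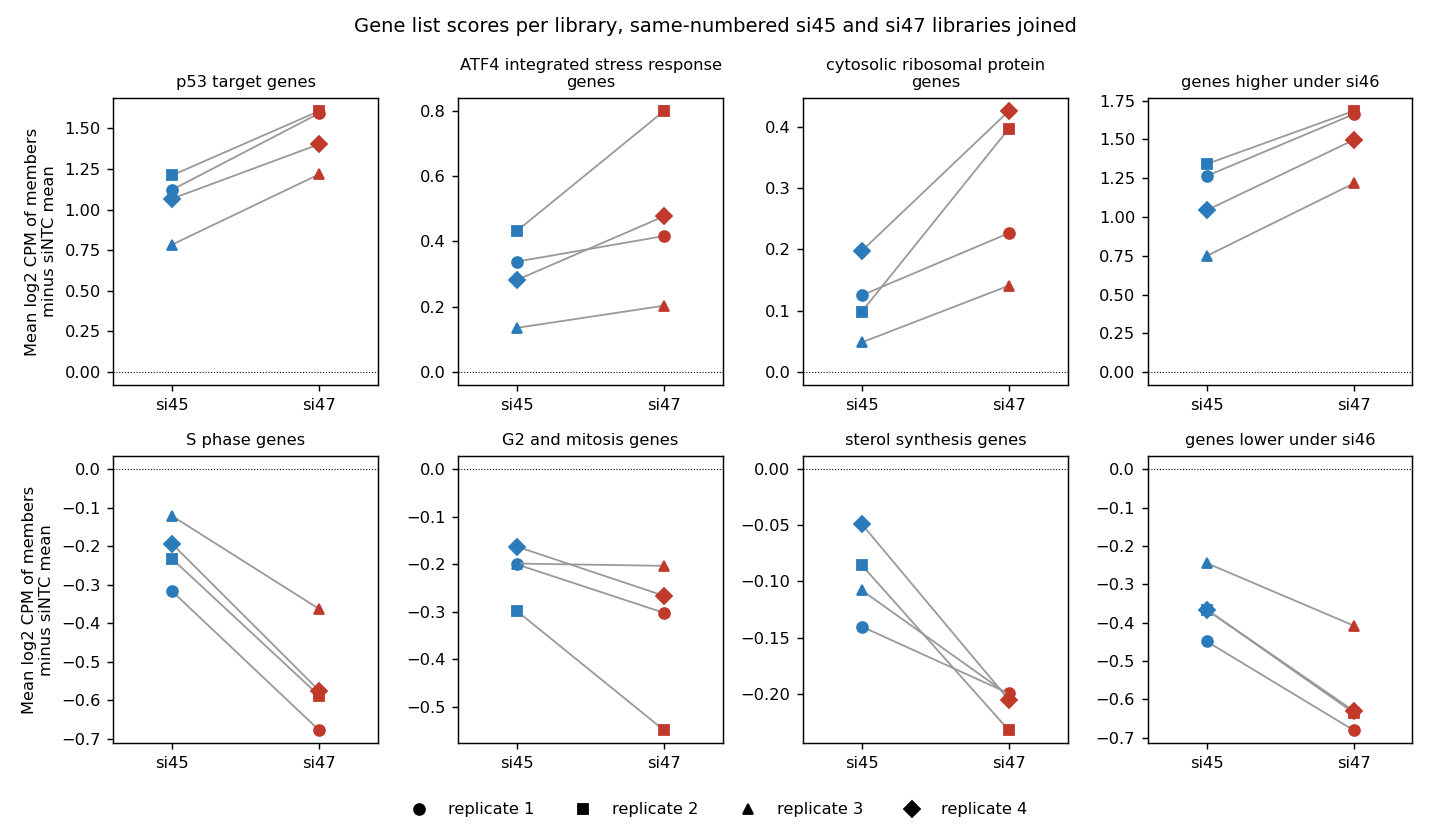
Score of 8 gene lists (vertical axes: average log2 CPM of the members relative to siNTC) in the si45 and si47 libraries; grey lines join libraries with the same replicate number and the dotted line marks the siNTC mean. All 4 lines rise for the p53, ATF4, ribosomal protein and si46-higher lists and fall for the S phase, G2 and mitosis, sterol and si46-lower lists.

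Of the cytosolic ribosomal protein genes, some were called higher by a small amount and most were not called. With the block 27 of 79 were higher and 1 lower (35.4% called, against 3.76% of all genes called and 2.0% called higher), 71 of 79 were positive, and the median was 0.22. The score was 0.13, 0.10, 0.05 and 0.20 in si45 and 0.23, 0.40, 0.14 and 0.43 in si47, larger in every pair by 0.0924 to 0.298. Examples were RPL34 (0.44), RPL30 (0.41), RPS15A (0.40) and RPS24 (0.34), while RPL14 was the member that fell (-0.42). Ribosomal protein genes took 9.26% to 10% of the counts in si45 and 9.88% to 11.4% in si47. Without the block edgeR called 0, with 45 higher and 1 lower at an unadjusted p under 0.05. The number called with it was 13 without replicate 1, 8 without replicate 2 and 9 without replicate 4.

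Of 30 genes of the ATF4 integrated stress response, 8 were higher with the block and 0 lower (26.7% called, against 3.76% of all genes called and 2.0% called higher), but the list's median was only 0.04. ATF5, itself a factor translated under stress, had 29.8, 39.1, 38.1 and 29.1 CPM in si45 and 49.7, 93.8, 66.9 and 51.5 CPM in si47 without overlap (0.92 with the block, SE 0.113, adjusted p = 4.52e-07), and siNTC held 24.1 to 43.7 CPM. DDIT4, an inhibitor of mTORC1 signalling, had 35.2, 38.4, 19.6 and 24 CPM in si45 and 55.8, 72.8, 35.5 and 53 CPM in si47 (0.89 with the block, SE 0.118, adjusted p = 1.77e-06). The DDIT4 groups overlapped, and its adjusted p without the block was 0.116. The others were TRIB3 (0.91), DDIT3 (CHOP, 0.78), CHAC1 (0.69), SESN2 (0.68), PPP1R15A (GADD34, 0.57) and ALDH1L2 (0.55). SESN2 is also on the p53 list. The number called was 4 without replicate 1 or 4 and 5 without replicate 2, and without the block edgeR called 0, with 8 higher and 2 lower at an unadjusted p under 0.05.

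The remaining lists had few calls with the block, between 1.92% and 12.5% of members against 3.76% of all genes in the first 6 described. The shares of the sterol (3.85%), respiratory chain (2.7%) and MYC target (1.92%) lists lay near or below that background and are no result about those lists. Of 27 adrenergic neuroblastoma genes, CHGA, chromogranin A, was higher (0.41, adjusted p = 6.45e-05) and EYA1, a transcriptional cofactor, was lower (-0.45). Of 16 mesenchymal genes, the AP-1 subunits JUN and JUNB were higher (0.61 and 0.60). JUN had 213, 241, 117 and 169 CPM in si45 and 313, 367, 159.95 and 303 CPM in si47, with siNTC at 48.6 to 65.1 CPM. In hypoxia and glycolysis BNIP3L, a mitophagy receptor, was higher (0.35) and AK4 and PFKP, a phosphofructokinase, were lower (-0.93 and -0.35) of 34. FASN, fatty acid synthase, was the 1 lower gene of 26 in sterol and lipid synthesis (-0.27). NDUFA5 and NDUFB1 were higher of 74 nuclear respiratory chain genes (0.29 and 0.27), and SLC29A2, a nucleoside transporter, was lower of 52 MYC targets (-0.40). The FASN, NDUFA5, NDUFB1 and SLC29A2 calls were each lost without replicate 1, 2 or 4, while without replicate 3 there were 3 sterol and 2 MYC target calls, and 1 of the 3 hypoxia and glycolysis calls was left without replicate 1. Lists on 2 general effects of small RNAs had no calls. Of 35 listed interferon and double-stranded RNA response genes 14 were tested with the block in edgeR, and 0 passed. Of 16 RNA interference genes 0 passed. The same held in all the alternatives run, DESeq2 and limma-voom included. With 3.76% of all genes called, 0 calls in lists this short is no result about them. Both groups received an siRNA, so this contrast cannot show an effect that they share. At an unadjusted p under 0.05, 2 interferon genes were higher and 0 lower, and 0 RNA interference genes passed. Over all genes, 2112 of 13431 were under 0.05 with the block. The 2 interferon genes were scarce and did not overlap between the siRNAs. IFI44L, an interferon-stimulated gene, had 2.95, 6.27, 5.2 and 3.97 CPM in si45 and 8.8, 7.62, 7.56 and 8.97 CPM in si47 (0.87 with the block, adjusted p = 0.0775), with 5.86 to 10.6 CPM in siNTC. PARP9, an ADP-ribosyltransferase family member that DTX3L overlaps on the opposite strand, had 3.73, 3.67, 2.95 and 1.7 CPM in si45 and 4.4, 5.44, 6.55 and 7.62 CPM in si47 (0.98 with the block, adjusted p = 0.126). Members with the lowest unblocked p of other lists that were not called with the block were DBH (0.22, adrenergic), VIM (-0.20, mesenchymal), NOLC1 (-0.17, MYC targets), SREBF2 (-0.30, sterol synthesis), and DROSHA (-0.16) and XPO5 (0.16) of the RNA interference machinery.

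**Figure D4:**
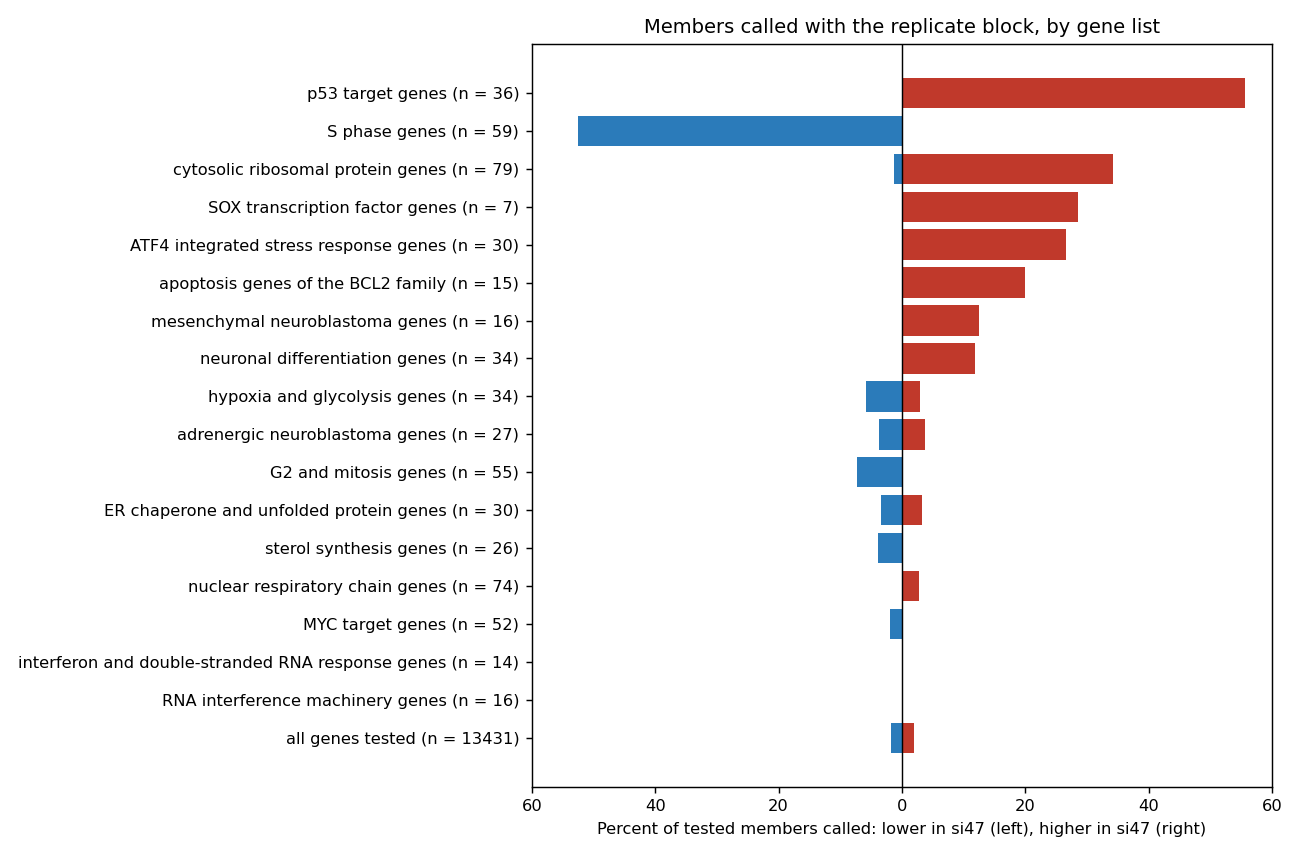
Percent of the tested members of 17 gene lists called with the replicate block, lower in si47 to the left (blue) and higher to the right (red), with all genes tested in the bottom row for comparison. p53 targets (55.6%) and S phase genes (52.5%) reach farthest, in opposite directions, against 3.76% of all genes.

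Genes were also chosen by si46 against siNTC, libraries that are outside the si47 minus si45 contrast and outside the blocked fit, although they share the filter and the estimate of spread of the unblocked fit. si46 raised 304 genes (2.14% of 14193) and lowered 178 (1.25%). The 304 genes had a median si47 minus si45 log2 fold change of 0.37, and 270 were positive. With the block, 90 of 285 tested were higher in si47 (31.9% called in either direction, against 3.76% of all genes) and 1 lower, WFIKKN2 (-0.51), named after its values were seen. Their score was 1.26, 1.34, 0.75 and 1.04 in si45, 1.66, 1.68, 1.22 and 1.496 in si47 and 1.36, 1.66, 1.08 and 1.48 in si46. The 178 lowered genes had a median of -0.22, and 54 of 176 were lower in si47 with the block and 0 higher (30.7% called, against 3.76% of all genes). Their score was -0.45, -0.37, -0.24 and -0.37 in si45, -0.68, -0.63, -0.41 and -0.63 in si47 and -0.53, -0.64, -0.46 and -0.63 in si46. In both sets each si47 library lay further from siNTC than its same-numbered si45 library. The genes were chosen on the si46 and siNTC libraries, so the si46 scores cannot be compared with those of si45 and si47. The sets share members with the p53 and S phase lists, such as TP53INP1 and ATAD2, and are not separate evidence. Counted the other way, 145 of the 505 genes called between si47 and si45 (28.7%, and 31.5% of the 461 si46 genes tested there, where 3.76% of all genes were called) were also called under si46, 144 in the same direction, and 360 were not. Members called among the raised genes numbered 46 without replicate 1 and 49 without replicate 4, and among the lowered genes 26 without replicate 1, 2 or 4.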

How the data were processed

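RNA of IMR32 cells was profiled by 3' end sequencing (QuantSeq, single-end, 15 PCR cycles, per the labels). The authors deposited raw read counts per Ensembl gene, whole numbers that were not normalized. FastQC 0.11.7, STAR 2.7.2b, edgeR 3.36.0, limma 3.50.3 and the build GRCh38 are listed in the submitters' processing notes. The counter, the annotation, the use of strand and the treatment of duplicates are not given in the sources used here, which affects overlapping genes, pseudogenes and small RNA families. Mitochondrially encoded genes were not analysed here. Some members of the gene lists are counted but not reported by name.

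Groups follow the siRNA named in each label. The main test was edgeR 4.0.16 (R 4.3.3; filterByExpr with a minimum count of 10 and a minimum total of 15, TMM, robust quasi-likelihood, Benjamini-Hochberg over all genes tested). The unblocked fit used all 16 libraries with 12 residual degrees of freedom, and the blocked fit the 8 si45 and si47 libraries with the replicate number as a block. The blocked fit has fewer residual degrees of freedom than the unblocked one, so its p-values lean more on the spread shared across genes. CPM values use TMM library sizes, and list scores a prior count of 2. Standard errors are the fold change divided by the square root of F. For TPX2, on log2(CPM + 1), and for totals a two-sided exact permutation test was used. Totals of 5318159 to 6429681 counts limit the precision for scarce genes, and counting error is the only error a count itself shows.

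Deviations from group means correlated at 0.133 to 0.274 between same-numbered si45 and si47 libraries and at -0.235 to 0.0502 between others, and 8 of 8 libraries correlated best with their own number. The pairing therefore comes from the values and not from the labels. The 12 pairs of libraries within si45 and within si47 differed beyond sampling noise (chi-square 4.64 to 9.8 per degree of freedom).

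Positions, types and overlaps came from GENCODE v29, which holds 58515 of the 58787 identifiers, and promoters from RefSeq. The comparison, its 17 pathway lists and 4 marker lists were chosen with earlier results of these data known, and the recombination, immediate early, translocon, histone, ribosomal pseudogene and small RNA groups after these values were seen. Genes were named by rule: TPX2, AURKA, MYCN, all genes called without the block, the 6 lowest p per direction called only with it (mean count of at least 20), and up to 2 genes per list with the lowest unblocked p. Further called members are named to complete a list. The fits were tested on simulated data. The alternatives tried were DESeq2 1.42.0, limma-voom (limma 3.58.1), RLE or upper-quartile scaling, other low-count filters, only the compared groups, the block over 16 libraries, stricter thresholds, other pseudocounts for TPX2 and leaving out each library or replicate number.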

Additional observations from a re-analysis of the deposited data

Results flagged for a closer look

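In 9 of 168 sets of 4 libraries examined, 1 library lay far from the other 3 by Dixon's criterion at 95%, where chance gives about 1 in 20, or 8.4. TPX2 in si45 was high in replicate 3, at 121 CPM against 79.4 to 85.1 in the others. MCM5 in si45 was high in the same library, at 190 CPM against 128 to 131. The score of the BCL2 family was low there, at 0.0512 against 0.308 to 0.356.

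Each of the remaining sets involved a different gene. SOX4 in si45 was 1158 CPM in replicate 1 and 1125 to 1129 CPM in the others, a narrow spread. HSP90B1 in si45 was 433 CPM in replicate 2 against 328 to 344. NHLH1 in si47 was 135 CPM in replicate 2 against 99.6 to 102, and its call was lost without that library. SNORD13 in si47 was 168 CPM in replicate 1 against 100.9 to 106. CANX, an endoplasmic reticulum lectin, was 541 CPM in si47 replicate 1 against 618 to 633, and ATP5MC1, a subunit of ATP synthase, was 519.8 CPM in si45 replicate 2 against 587 to 591. Without si45 replicate 3 the TPX2 log2 fold change was -0.19.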

How the results depend on the processing

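The replicate block and the threshold moved the counts by large factors. The 24 genes called without it became 505 with the block on 8 libraries and 398 with the block on 16, and TPX2, not called without it, passed with the block on 8 libraries (log2 fold change -0.34, adjusted p = 0.0327) but not on 16 (-0.35, adjusted p = 0.107). The unblocked count was 137 with DESeq2, 166 without a low-count filter, 8 at an adjusted p under 0.01, 1 with a 2-fold change also required, and 10 to 147 when 1 library was left out. The blocked count was 328 with DESeq2, 192 at an adjusted p under 0.01, 28 with a 2-fold change, and 184, 260, 543 and 205 without replicates 1 to 4 in turn. The same omissions gave 10 to 15 p53 targets (13 without replicate 2 or 4), 17 to 32 S phase genes (20 without replicate 2), 1 to 5 G2 and mitosis genes, 46 to 79 si46-raised genes (49 without replicate 4) and 26 to 56 si46-lowered genes. G2 and mitosis genes called fell from 4 to 2 with DESeq2 and with the block on 16 libraries. The 24 genes called without the block and the 12 named as called only with it kept their direction in each alternative run for them; other named genes called with the block were not followed through the alternatives of that fit. 2 uncalled genes changed sign when 1 library was left out: MYCN ranged from -0.0216 (without si45 replicate 3; -0.0101 without si47 replicate 1) to 0.208, and AURKA from -0.194 to 0.0864 (without si45 replicate 3; 0.025 and 0.0142 without replicate 1 or 2 of si47). The cause was not tested. Scaling moved the median of all genes by less than 0.01 on the log2 scale. Genes with few counts per library limit what can be called at this depth.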

Other observations

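Some small nuclear and nucleolar RNAs, groups counted after the values were seen, were higher in si47, although the kit primes polyadenylated RNA. With the block, 7 of 50 tested snoRNAs were higher and 0 lower, and 8 of 55 snRNAs higher and 1 lower (RNU2-63P, -0.54), against 2.0% of all genes higher. SNORD13, which guides an rRNA modification, had 74.5, 52.9, 37.6 and 47.5 CPM in si45 and 168, 100.9, 106 and 101.3 CPM in si47 without overlap (1.17 with the block, SE 0.09696, adjusted p = 1.39e-11), and 5.55 to 9.38 CPM in siNTC. Its unblocked adjusted p was 0.0542, and TTI2 overlaps it on the opposite strand. snRNAs took 0.239% to 0.344% of the counts in si45 and 0.265% to 0.425% in si47, and snoRNAs 0.0439% to 0.0595% and 0.0557% to 0.0851%. How reads of near-identical copies were divided is not given in the sources used here. Processed copies of ribosomal protein genes were higher in 18 and lower in 2 of 140 (RPL14P1 and RPL23AP32), 14.3% called against 3.76% of all genes, and this group too was formed after the values were seen.

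Immediate early genes, a list drawn up after these values were seen, were higher with the block in 11 of 30 and lower in 0 (36.7% called, against 3.76% of all genes called and 2.0% called higher), with a median of 0.46. VGF, a neuropeptide precursor induced by growth factors, had 92.5, 143, 62.4 and 101.2 CPM in si45 and 189, 212, 99.3 and 187 CPM in si47 (0.79 with the block, SE 0.0855, adjusted p = 2.44e-08), the groups overlapping at replicate 3. For VGF the adjusted p without the block was 0.338. Others were the ETS factors ETV4 (1.17) and ETV5 (0.72), the ERK phosphatase DUSP6 (0.95), ARC (0.90) and EGR1 (0.63). The score of the list was 1.03, 1.33, 0.43 and 0.99 in si45 and 1.47, 1.65, 0.95 and 1.502 in si47, lowest in replicate 3 of each. Of 31 translocon genes, also a list drawn up after these values were seen, 2 were higher and 0 lower, SSR2 and SRP19 (0.60). That is 6.45% called, against 3.76% of all genes called and 2.0% called higher. Replication-dependent histone genes were also grouped after the values were seen. Of 38 tested, 10.5% were called, against 3.76% of all genes. They were 1 higher (H2AC25, 0.84) and 3 lower (H4C3, H1-5 and H2AC20). Of these H4C3, a histone H4 gene, had 2187, 3006, 3879 and 3011 CPM in si45 and 1846, 2273, 3023 and 1806 CPM in si47 (-0.44 with the block, SE 0.0702, adjusted p = 6.62e-05), with overlapping groups. For H4C3 the adjusted p without the block was 0.42.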
